A study of Homo sapiens with 12 samples.

Results

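The genes described here are 36 human genes whose products start DNA replication at origins or work at the replication fork. They were taken from a list of gene symbols, and each was represented by its transcript row with the highest mean over the 6 PC-3M libraries. The deposited tables list 24359 gene symbols, and all 36 replication genes were found and were abundant enough in PC-3M to be tested. By role they comprise 10 genes of origin licensing, 6 of helicase activation, 5 of the sliding clamp and its loader, 8 of the polymerases and primase, and 7 other fork genes.

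Total RNA was sequenced from 2 established human cell lines, PC-3M, a prostate cancer line selected from PC-3 for its spread, and MCF10A, a non-transformed breast epithelial line. In each line 3 libraries came from cells given control siRNA and 3 from cells given siRNA against KMT9a, the methyltransferase encoded by N6AMT1, which acts in a complex with TRMT112 and for which the series title names the histone mark H4K12me1. PC-3M cells were at passage 11 and MCF10A cells at passage 13, in all groups of the line. The labels number the libraries as biological replicates and do not say whether cultures or days were separate, so the p-values here cover the variation among these libraries, which may be technical. The labels give neither the siRNA sequences nor the time after transfection.

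Replication in human cells runs in ordered steps. In G1 phase the origin recognition complex, CDC6 and CDT1 load rings of MCM2 to MCM7 onto DNA, which is called licensing. In S phase CDC45 and the GINS complex join the MCM ring to form the active CMG helicase, DNA polymerase alpha with primase lays down primers, replication factor C loads the PCNA clamp, and polymerases delta and epsilon extend the strands. Many of these genes are transcribed in a cell-cycle-dependent way, with E2F factors as well-studied regulators.

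Promoter sequences are shown first because the text contrasts subunits of the same complex whose transcripts differed in response. In PC-3M the MCM6 transcript was lower after KMT9a siRNA and the MCM7 transcript higher, while GINS2 was lower and the GINS3 groups overlapped. RefSeq windows on GRCh38.p14, from 250 bases before to 50 bases after a transcript start, were matched by symbol for 30 of the 36 genes, with 38 windows; GINS4, MCM4, MCM5, POLD3, RPA2 and RPA3 had no entry. The MCM6 window lies at chr2:135876394-135876693 on the minus strand, the first MCM7 window at chr7:100101348-100101647 on the minus strand, the GINS2 window at chr16:85688905-85689204 on the minus strand and the GINS3 window at chr16:58392221-58392520 on the plus strand. Each is written 5′ to 3′ along the gene's strand, and capitals mark matches to the E2F-type motif defined in the next paragraph.
MCM6: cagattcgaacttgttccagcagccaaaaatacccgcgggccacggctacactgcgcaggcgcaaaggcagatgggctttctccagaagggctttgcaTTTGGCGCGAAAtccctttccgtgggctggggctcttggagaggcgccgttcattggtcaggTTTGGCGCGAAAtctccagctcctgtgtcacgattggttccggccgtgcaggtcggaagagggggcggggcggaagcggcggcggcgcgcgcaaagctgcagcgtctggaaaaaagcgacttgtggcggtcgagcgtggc
MCM7: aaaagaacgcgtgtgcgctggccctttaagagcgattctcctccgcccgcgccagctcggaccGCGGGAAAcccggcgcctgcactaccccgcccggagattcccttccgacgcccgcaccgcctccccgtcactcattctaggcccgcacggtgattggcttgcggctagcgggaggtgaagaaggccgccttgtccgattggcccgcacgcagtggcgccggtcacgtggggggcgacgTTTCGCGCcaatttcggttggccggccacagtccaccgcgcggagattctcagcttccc
GINS2: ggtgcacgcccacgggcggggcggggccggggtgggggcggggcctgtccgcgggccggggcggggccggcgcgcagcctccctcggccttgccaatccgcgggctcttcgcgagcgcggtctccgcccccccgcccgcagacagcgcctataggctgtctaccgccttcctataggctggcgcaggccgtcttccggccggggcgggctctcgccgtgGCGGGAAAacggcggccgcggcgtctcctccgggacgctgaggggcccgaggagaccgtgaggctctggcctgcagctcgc
GINS3: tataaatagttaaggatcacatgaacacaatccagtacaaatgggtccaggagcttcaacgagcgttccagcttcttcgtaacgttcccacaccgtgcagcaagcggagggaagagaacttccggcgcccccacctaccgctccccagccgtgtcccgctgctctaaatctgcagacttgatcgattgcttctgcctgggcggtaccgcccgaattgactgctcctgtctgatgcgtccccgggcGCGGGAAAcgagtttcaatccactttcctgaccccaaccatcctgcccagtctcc

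The E2F-type motif was searched on both strands as TTTCCCGC, TTTCGCGC, TTTGCCGC or TTTGGCGC. MCM6 held 4 matches, which form overlapping pairs starting at positions -152 and -148 and at -90 and -86 from the transcript start. MCM7 held 2 matches in the window shown and none in the windows of its other 2 starts, GINS2 held 1 match at -31, and GINS3 held 1 match at -5. The motif was therefore present in a window of the subunits that fell and of partners that did not. Which of the MCM7 windows belongs to the transcript row measured here was not determined. Over all 38 replication-gene windows, 17 held a match, each from a different gene, and 3.31% of all 35116 windows in the table did. The 17 genes with a match had a median log2 fold change of -1.04 in PC-3M, and the 13 genes without a match had a median of -1.26. TTTGAA, the letters of the cell cycle homology region, was found in 1 replication-gene window, that of TOP2A, and in 15.2% of all windows. A match is a run of letters in a window and does not show that a factor binds there. Only the listed letters were searched, so a window without a match may hold an E2F site of other letters. The 2 medians therefore do not compare genes with and without E2F sites.

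Depth differed widely between the lines: each PC-3M library gave 40236221 to 53401602 read ends in genes, with 17067 to 17540 genes above 0, and each MCF10A library gave 181064 to 255642 read ends, with 2298 to 2594 genes above 0. Levels are given as CPM, the read ends of a gene relative to the library's TMM-scaled total over tested genes, where TMM assumes that most genes did not change, and levels are compared between genes only as CPM per kilobase of transcript. The targeted transcript, N6AMT1, stood at 11.4, 12.0 and 11.0 CPM in control replicates 1, 2 and 3 of PC-3M and at 3.01, 2.58 and 2.83 CPM in the knockdown replicates, a log2 difference of -2.02 (SE 0.107, limma adjusted p = 3.47e-09). In MCF10A it was at 0 read ends in all 6 libraries, so the knockdown could not be checked there. Knockdown replicate 2 stood apart in both lines. In PC-3M, with read ends divided by 2, it differed from the other 2 knockdown libraries by a chi-square of 11.1 and 13.4 per degree of freedom. The value was 2.37 between the other 2 knockdown libraries and 1.59 to 2.34 among controls. In PC-3M the prostate epithelial markers summed to 1042 to 1058 CPM in controls and 997 to 1100 CPM after knockdown, with KLK3 near 0. Members of that list moved in opposite directions: KRT8 rose from 147 to 335 CPM, while HOXB13 fell from 270.1 to 126 CPM and EPCAM from 41.1 to 23.3 CPM. The basal breast list summed to 5.63 to 6.12 CPM in controls and 15.0 to 19.4 CPM after knockdown, mostly from LAMB3. Leukocyte markers were at a sum of 0.336 to 0.513 CPM in controls and 2.65 to 4.32 CPM after knockdown. Endothelial markers were 40.4 to 48.2 CPM in controls and 9.79 to 10.6 CPM after knockdown, with VWF at 0; KDR fell from 44.2 to 8.13 CPM, and PECAM1 rose from 0.358 to 2.09 CPM. Fibroblast markers, almost all from COL1A1, were 49.97 to 51.7 CPM and 31.0 to 40.3 CPM, with DCN at 0. The part of these marker changes in the results on replication genes was not tested.

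In PC-3M, 31 of the 36 replication genes fell after KMT9a siRNA, 1 rose and 4 did not pass the test, by limma with Benjamini-Hochberg adjustment over 14958 genes at an adjusted p under 0.05. Over all tested genes, 74.5% were called, 37.3% lower and 37.2% higher, so calls were common for any gene of this line. The authors' deposited table had 32 of the 36 genes lower and 1 higher, beside 37.8% lower over the same genes. At 2-fold or more, 19 of the 36 genes were lower and 0 were higher, against 11.8% lower and 12.3% higher over all genes. The median log2 fold change of the 36 genes was -1.06, with quartiles of -1.74 and -0.54, and the median over all genes was 0.00, with quartiles of -0.54 and 0.55. All 3 knockdown libraries lay below all 3 controls for 30 replication genes and above them for 1, and the groups overlapped for 5; over all genes 38.4% lay below and 38.6% above. Without knockdown replicate 2 the counts were 33 lower and 1 higher, and the 2-fold count stayed at 19. Scaled to library totals in place of TMM, 34 were lower and 1 higher; the median of all genes then moved to -0.17, and 60.9% of all called genes were lower, in place of 50.05%.

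The fall went with a fall in transcripts of cycling cells. MKI67, CCNA2, CCNB1, CDK1, BUB1 and AURKA, which are made mainly by dividing cells, summed to 284 to 294 CPM in the controls and to 45.6 to 55.7 CPM after knockdown, and all 6 fell by at least 2-fold, with log2 fold changes from -3.48 for CDK1 to -1.88 for AURKA. In bulk RNA, fewer cells in cycle and less transcript per cycling cell cannot be told apart.

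**Figure D1:**
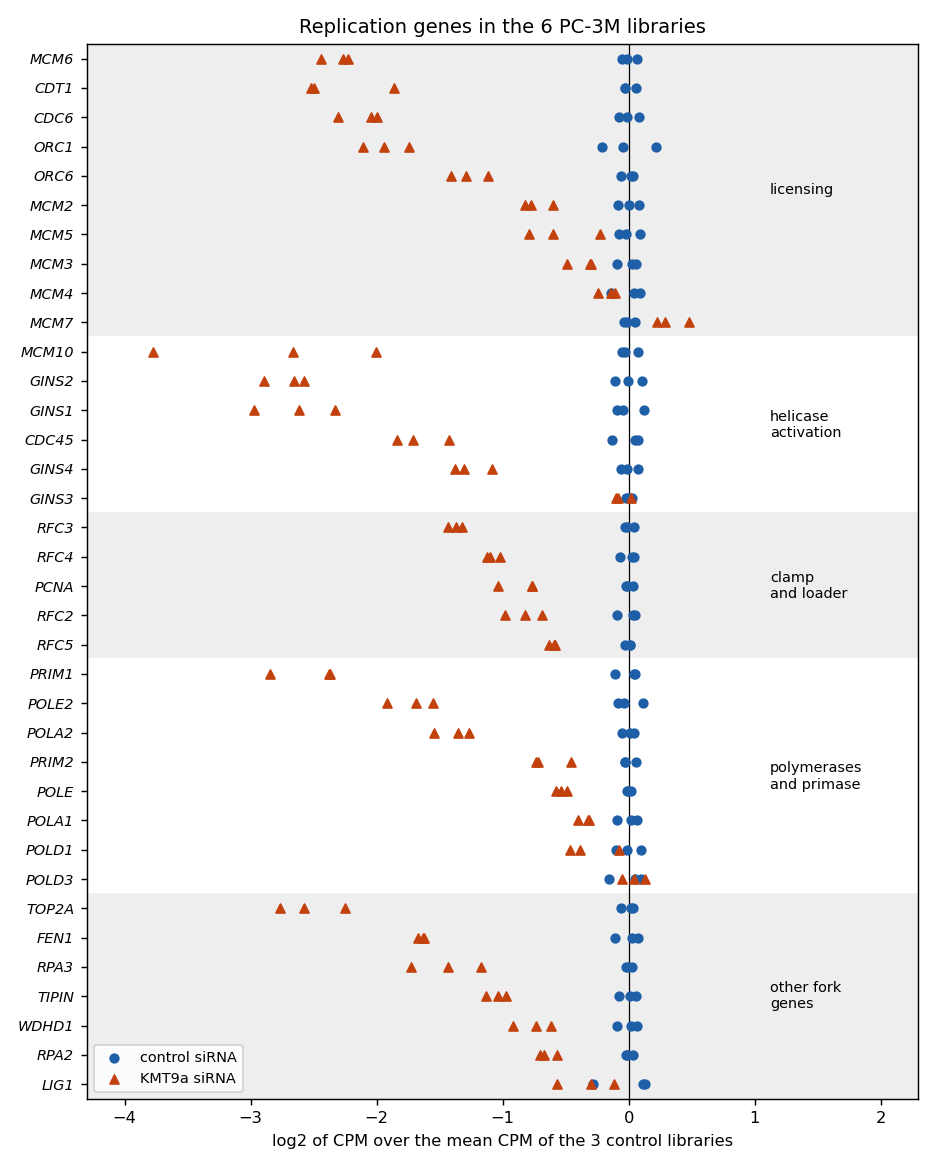
Level of each of the 36 replication genes in the 6 PC-3M libraries, as the log2 of its CPM over the mean of the 3 control libraries, with genes grouped by role and ordered by change. Circles are control siRNA and triangles KMT9a siRNA; the triangles lie left of all circles for 30 genes and right of them only for MCM7.

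Within licensing, the 4 listed genes that load the helicase fell more than most of the ring that is loaded. The 4 loading genes ORC1, ORC6, CDC6 and CDT1 all fell by at least 2-fold, with a median log2 fold change of -1.99, while among MCM2 to MCM7 4 genes fell, 1 rose and 1 did not pass, with a median of -0.45. No test was made between these medians, because genes of a role are not replicates. The contrast is that of the listed genes. Other subunits of the origin recognition complex, named here after their values were seen, did not fall as far as ORC1 and ORC6. Their log2 fold changes were 0.08 for ORC2, which did not pass, 0.43 for ORC3, -0.38 for ORC4 and -0.89 for ORC5. For licensing as a whole, 8 of 10 genes fell, 5 of them by at least 2-fold, beside 37.3% and 11.8% of all tested genes.

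CDT1, which brings the MCM ring to origins and is kept to G1 by degradation and by geminin, stood at 9.68, 9.70 and 10.3 CPM in the controls and at 1.73, 2.72 and 1.75 CPM after knockdown. Its log2 fold change was -2.27 (SE 0.163, limma adjusted p = 5.72e-08). CDC6, the ATPase that recruits CDT1 and MCM to the origin recognition complex, stood at 16.4, 14.6 and 15.3 CPM and then at 3.13, 3.88 and 3.74 CPM. Both groups were tight beside the distance between them, and the CDC6 log2 fold change was -2.10 (SE 0.108, limma adjusted p = 2.69e-09). ORC1, the subunit of the origin recognition complex whose protein level cycles in human cells, went from 4.17 ± 0.629 CPM (SD, n = 3) to 1.10 ± 0.141 CPM, a log2 difference of -1.88 (SE 0.168, limma adjusted p = 4.73e-07). ORC6, the smallest subunit, went from 10.4 ± 0.351 CPM to 4.33 ± 0.45 CPM, a log2 difference of -1.26 (SE 0.106, limma adjusted p = 2.56e-07); its row of highest mean is a noncoding transcript variant of the gene. On hg19, ORC1 lies at chr1:52838501-52870143, ORC6 at chr16:46723558-46732306, CDC6 at chr17:38444146-38459413 and CDT1 at chr16:88870186-88875666, all as whole transcript spans.

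The MCM ring genes moved unequally. MCM6 (hg19 chr2:136597196-136634011) stood at 32.6, 35.3 and 33.4 CPM in the controls and at 6.22, 7.02 and 7.22 CPM after knockdown. That is 4.95-fold lower, with a log2 difference of -2.30 (SE 0.0833, 95% interval -2.48 to -2.12, limma adjusted p = 1.24e-10), and no other ring gene fell by 2-fold. MCM2 stood at 51.8, 48.7 and 54.7 CPM in the controls and at 29.4, 34.1 and 30.2 CPM after knockdown (log2 fold change -0.73, SE 0.0731, limma adjusted p = 1.35e-06). MCM5 stood at 15.5, 14.8 and 16.6 CPM and then at 9.05, 13.3 and 10.3 CPM (log2 fold change -0.54, SE 0.124, limma adjusted p = 0.00168), and without knockdown replicate 2, its highest knockdown library, the change was -0.69. MCM3 stood at 58.9, 54.5 and 60.3 CPM and then at 41.3, 46.8 and 47.1 CPM (log2 fold change -0.36, SE 0.0689, limma adjusted p = 0.000401). For MCM2, MCM3 and MCM5 the groups did not overlap, with the knockdown lower, as for 38.4% of all tested genes.

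MCM7 (hg19 chr7:99690404-99698380), the ring subunit with the highest level per kilobase in the controls, was the single replication gene that rose. It stood at 114, 116 and 121 CPM in the controls and at 143, 163 and 136 CPM after knockdown, and the lowest knockdown library lay above the highest control. The log2 fold change was 0.33 (SE 0.0649, 95% interval 0.19 to 0.47, limma adjusted p = 0.000488). Under library totals the value was 0.16, with a limma adjusted p of 0.028, which is 0.33 above the median of all genes under that scaling. The introns of MCM7 host the microRNA genes MIR106B, MIR25 and MIR93 on the same strand; their own rows held 0.0595, 0.461 and 0.0845 CPM in the controls and had log2 fold changes of 2.07, 1.06 and 2.27. The MIR106B and MIR93 rows were so low that their fold changes rest on few read ends. These short rows overlap MCM7 by 82, 84 and 80 bases, while its transcript has 2873 bases. Their CPM is therefore not compared with that of MCM7. MCM4 stood at 56.5, 48.4 and 54.8 CPM in the controls and at 45.0, 49.3 and 48.2 CPM after knockdown, and the groups overlapped. Its log2 fold change was -0.16 (SE 0.0701, 95% interval -0.31 to -0.01, limma adjusted p = 0.0534), and it passed the threshold under 7 alternatives. Among these were library totals (log2 fold change -0.33, limma adjusted p = 0.000727), the edgeR test (adjusted p = 0.0497) and the DESeq2 test (adjusted p = 0.0434), and 3 of the 6 fits with a library left out, which gave -0.23 to -0.19. In the authors' deposited table MCM4 was also lower (log2 fold change -0.19, adjusted p = 0.0283).

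As shares of the summed CPM per kilobase of the 6 ring genes, MCM6 went from 9.02% ± 0.609 (SD, n = 3) to 2.02% ± 0.171 and MCM7 from 40.3% ± 0.961 to 56.3% ± 1.82. The shares of MCM2, MCM3 and MCM5 were also lower in every knockdown library, and the share of MCM4 overlapped between groups, at 10.8% and 10.7%. The ratio of the highest to the lowest subunit was 6.53 ± 0.258 in the controls and 28.0 ± 3.10 after knockdown. These are transcript shares, and the proteins form a ring with equal numbers of each subunit.

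As the 36 genes were grouped here, helicase activation held the largest median fall of the 5 roles, -2.12 over 6 genes. Of these, 5 were lower by at least 2-fold, beside 11.8% of all tested genes, and GINS3 did not pass the test. The other replication genes described below were not placed in these roles. MCM10, a scaffold that activates the CMG helicase, had, per kilobase, the lowest level of the 36 genes after knockdown, at 0.13 CPM per kilobase. It stood at 3.59, 3.52 and 3.86 CPM in the controls and at 0.913, 0.267 and 0.575 CPM after knockdown. Its log2 fold change was -2.71 (SE 0.321, 95% interval -3.40 to -2.01, limma adjusted p = 6.51e-06), the widest error among the 36 genes. Its place beside GINS2 in the order of change depends on the setting: with a pseudocount of 5 MCM10 was at -2.37 and GINS2 at -2.55, and without knockdown replicate 2 they were at -2.27 and -2.58. CDC45, the helicase cofactor bound to MCM2 to MCM7 in the CMG complex, stood at 8.14, 7.07 and 8.04 CPM and then at 2.17, 2.36 and 2.88 CPM (log2 fold change -1.64, SE 0.133, limma adjusted p = 1.85e-07).

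GINS is a complex of 4 subunits in equal numbers, and 3 of its 4 transcripts fell, beside 37.3% of all tested genes. GINS2 (hg19 chr16:85711280-85722588) stood at 10.1, 9.38 and 10.9 CPM in the controls and at 1.60, 1.36 and 1.70 CPM after knockdown, which is 6.51-fold lower (log2 fold change -2.67, SE 0.129, limma adjusted p = 1.48e-09). GINS1 (hg19 chr20:25388323-25429191) stood at 10.7, 10.3 and 12.0 CPM and then at 1.8, 1.40 and 2.20 CPM (log2 fold change -2.61, SE 0.155, limma adjusted p = 9.92e-09). GINS4 stood at 4.28, 4.72 and 4.43 CPM and then at 1.73, 2.12 and 1.8 CPM (log2 fold change -1.24, SE 0.137, limma adjusted p = 3.6e-06). In each of these genes every knockdown library lay far below every control. GINS3 (hg19 chr16:58426298-58440048) stood at 14.2, 14.1 and 14.5 CPM in the controls and at 14.4, 13.3 and 13.4 CPM after knockdown. Those groups overlapped, and the log2 fold change of -0.06 had a 95% interval of -0.22 to 0.11 (limma adjusted p = 0.52), which does not meet the intervals of the other GINS genes. Under library totals GINS3 was called lower, at -0.23 (limma adjusted p = 0.0201), beside the median of -0.17 over all genes.

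Per kilobase, GINS2 was the most abundant GINS transcript in the controls, at 8.64 CPM per kilobase against 5.99 for GINS3, and GINS3 was the most abundant after knockdown, at 5.76 against 1.33 for GINS2. The GINS3 share of the summed GINS level was 31.3% ± 1.04 (SD, n = 3) in the controls and 70.9% ± 2.08 after knockdown, and the GINS2 share 45.0% ± 1.13 and 16.3% ± 1.31. The GINS4 share overlapped between groups, at 6.12% and 6.08%. The share differences of MCM6, MCM7, GINS2 and GINS3 were thus many times the spread between libraries.

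**Figure D2:**
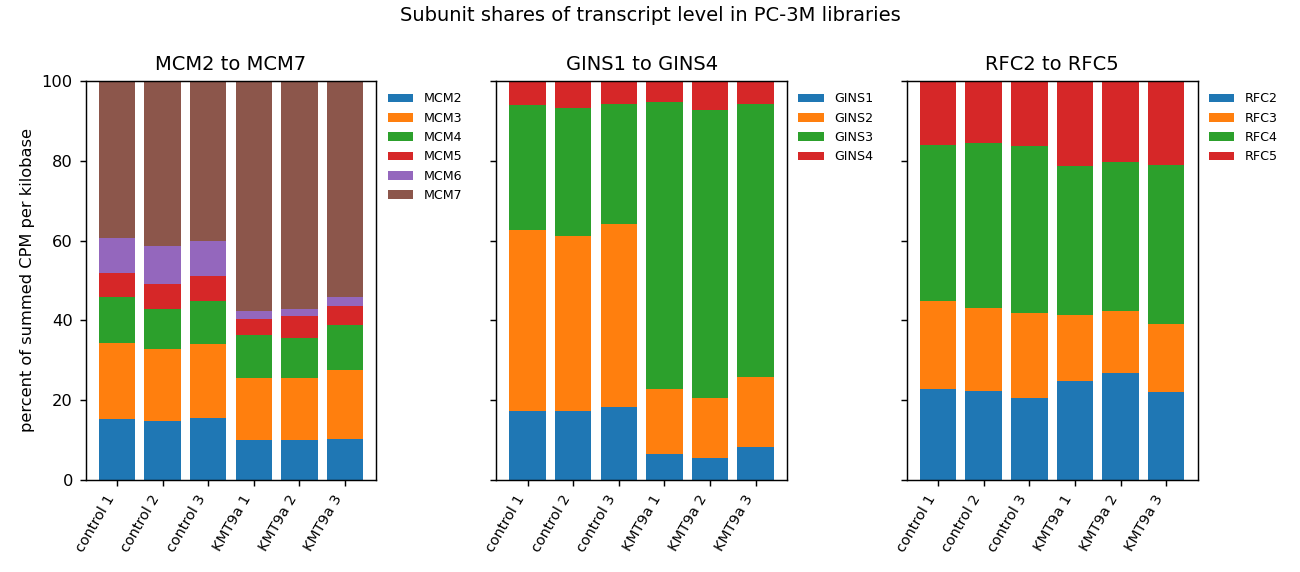
Shares of each subunit in the summed CPM per kilobase of MCM2 to MCM7, GINS1 to GINS4 and RFC2 to RFC5 in each PC-3M library, stacked to 100%. The MCM7 share grows from 40.3% to 56.3% and the GINS3 share from 31.3% to 70.9%, while the loader shares change less.

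The clamp loader behaved as a more even group. PCNA, the ring that tethers polymerases to DNA, stood at 42.8, 41.4 and 41.2 CPM in the controls and at 24.6, 20.4 and 24.6 CPM after knockdown (log2 fold change -0.85, SE 0.0792, limma adjusted p = 6.55e-07). All 4 small loader subunits fell, beside 37.3% of all tested genes, with a median of -0.95. RFC3 stood at 19.8, 18.8 and 19.0 CPM and then at 7.42, 7.11 and 7.66 CPM (log2 fold change -1.37, SE 0.0801, limma adjusted p = 8.36e-09), and RFC4 at 20.0, 21.4 and 21.5 CPM and then at 9.62, 9.78 and 10.4 CPM (-1.08, limma adjusted p = 5.98e-08). RFC2 and RFC5 fell by less than 2-fold, with log2 fold changes of -0.82 (limma adjusted p = 6.48e-06) and -0.60 (limma adjusted p = 1.49e-05). For all 5 genes every knockdown library lay below every control, as for 38.4% of all tested genes. The RFC3 share of the summed level of RFC2 to RFC5 went from 21.5% to 16.4% and the RFC5 share from 16.0% to 20.9%, without overlap, and the shares of RFC2 and RFC4 overlapped. The ratio of the highest to the lowest subunit was 2.55 ± 0.123 in the controls and 2.33 ± 0.0715 after knockdown, so the spread within the loader did not widen as it did in MCM and GINS. PCNA shares 384 bases with the antisense gene PCNA-AS1, whose log2 fold change was -0.98, and without strand handling in the sources used here reads of the pair cannot be told apart.

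Subunits of the same polymerase also moved unequally. PRIM1, the catalytic primase subunit that makes the RNA primer, had the largest change of the 8 polymerase and primase genes. It stood at 8.0, 7.16 and 7.95 CPM in the controls and at 1.48, 1.07 and 1.49 CPM after knockdown, 5.72-fold lower (log2 fold change -2.49, SE 0.152, limma adjusted p = 1.28e-08). PRIM2, the large primase subunit, stood at 13.9, 13.8 and 14.7 CPM and then at 10.3, 8.58 and 8.48 CPM (log2 fold change -0.64, limma adjusted p = 5.32e-05). The intervals of the primase pair, -2.83 to -2.16 for PRIM1 and -0.84 to -0.43 for PRIM2, do not meet, although PRIM1 and PRIM2 bind each other in equal numbers.

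POLA2, the accessory subunit of polymerase alpha, stood at 14.8, 13.9 and 14.5 CPM in the controls and at 5.97, 4.92 and 5.62 CPM after knockdown (log2 fold change -1.38, limma adjusted p = 5.02e-08). POLA1, its catalytic subunit, stood at 18.4, 16.4 and 17.8 CPM and then at 14.0, 13.2 and 14.0 CPM (log2 fold change -0.35, limma adjusted p = 0.00148). Their 95% intervals, -1.60 to -1.17 for POLA2 and -0.52 to -0.18 for POLA1, do not meet. In polymerase epsilon, POLE2, an accessory subunit, had a log2 difference of -1.70 (SE 0.128, limma adjusted p = 9.1e-08) and POLE, the catalytic subunit of leading-strand synthesis, one of -0.53 (SE 0.0606, limma adjusted p = 4.56e-06). POLE2 stood at 7.87, 7.63 and 8.76 CPM and then at 2.76, 2.52 and 2.15 CPM, and POLE at 39.9, 39.1 and 39.1 CPM and then at 26.4, 28.1 and 27.2 CPM. The intervals of POLE2 and POLE, -1.97 to -1.42 and -0.66 to -0.40, do not meet either. The order did not hold for every accessory subunit: POLE3, an accessory subunit of polymerase epsilon named here after its values were seen, stood at 147 ± 2.07 CPM (SD, n = 3) and then at 142 ± 2.55 CPM (log2 fold change -0.06, limma adjusted p = 0.299). Among these 8 genes, POLD1 and POLD3 of polymerase delta, the lagging-strand enzyme, had the smallest changes. POLD1, its catalytic subunit, stood at 30.4, 28.5 and 32.8 CPM and then at 22.1, 29.0 and 23.4 CPM; the groups overlapped, and the log2 fold change of -0.31 had a limma adjusted p of 0.0125, which became 0.0591 without control replicate 3. POLD3, an accessory subunit, stood at 11.5, 9.94 and 11.9 CPM and then at 10.7, 11.5 and 12.2 CPM (log2 fold change 0.05, 95% interval -0.16 to 0.25, limma adjusted p = 0.678), and its sign turned under library totals, to -0.13. As a role, 7 of 8 genes fell, 3 by at least 2-fold, beside 37.3% and 11.8% of all tested genes. The median of the role was -0.58, and polymerase delta and epsilon together had a median of -0.42.

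Of the other fork genes, 6 of 7 fell, beside 37.3% of all tested genes, with a median of -1.04. TOP2A, which unlinks DNA behind the fork and is most abundant in G2 and mitosis, stood at 62.2, 58.9 and 63.0 CPM in the controls and at 10.3, 9.02 and 12.9 CPM after knockdown, 5.71-fold lower (log2 fold change -2.53, SE 0.108, limma adjusted p = 5.3e-10). FEN1, the nuclease that trims flaps from Okazaki fragments, stood at 53.1, 46.6 and 51.1 CPM and then at 16.2, 16.3 and 15.8 CPM (log2 fold change -1.64, SE 0.0689, limma adjusted p = 4.48e-10). LIG1, which seals the fragments that FEN1 has trimmed, stood at 2.78, 3.65 and 3.70 CPM and then at 2.74, 3.12 and 2.28 CPM. The LIG1 groups overlapped, and its log2 fold change was -0.31 (SE 0.164, 95% interval -0.67 to 0.05, limma adjusted p = 0.104); without control replicate 1 the limma adjusted p was 0.0395 and without knockdown replicate 2 it was 0.0256. RPA2 and RPA3, subunits of the single-strand binding complex, fell from 65.4 ± 1.36 CPM (SD, n = 3) to 41.7 ± 2.09 CPM and from 9.97 ± 0.187 CPM to 3.71 ± 0.707 CPM, with log2 fold changes of -0.65 (limma adjusted p = 5.33e-07) and -1.43 (limma adjusted p = 6.61e-07). RPA3 overlaps a noncoding transcript on the opposite strand over 77897 bases, whose log2 fold change was -0.11. TIPIN, of the fork protection complex, went from 7.38 to 3.57 CPM and WDHD1, which links the helicase to polymerase alpha, from 14.4 to 8.56 CPM, with log2 fold changes of -1.04 (limma adjusted p = 1.81e-06) and -0.75 (limma adjusted p = 1.49e-05).

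A chosen list of other replication genes was mostly lower as well. Of its 38 genes, all tested, 26 fell, 5 rose and 7 did not pass, with 11 lower and 0 higher by at least 2-fold and a median log2 fold change of -0.60. Over all tested genes 37.3% were lower and 37.2% higher, and 11.8% and 12.3% at 2-fold or more. The 6 with the smallest p-values among those that fell were ASF1B, POLE4, RNASEH2A, RFC1, CHAF1A and GMNN. ASF1B, a histone chaperone of replicating chromatin, fell from 17.9 ± 1.73 CPM (SD, n = 3) to 3.35 ± 0.235 CPM (log2 fold change -2.40, limma adjusted p = 6.22e-10), and CHAF1A, of the chromatin assembly factor, from 27.6 to 11.7 CPM (-1.24, limma adjusted p = 7.43e-09). RNASEH2A, which removes ribonucleotides from DNA, fell from 26.9 to 8.63 CPM (-1.64, limma adjusted p = 2.5e-09), and GMNN, geminin, the inhibitor of CDT1, fell from 23.1 to 8.74 CPM (-1.40, limma adjusted p = 1.45e-08). Both CDT1 and its inhibitor were therefore lower. RFC1, the large loader subunit, fell from 131 to 65.6 CPM (-0.99, limma adjusted p = 4.46e-09), close to the median of the small subunits. POLE4, an accessory subunit of polymerase epsilon, fell from 75.4 to 30.9 CPM (-1.28, limma adjusted p = 7.62e-10).

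The 5 genes that rose were POLD4, CHTF8, MCM9, ORC3 and TOPBP1. POLD4, the smallest subunit of polymerase delta, rose from 26.7 ± 2.62 CPM (SD, n = 3) to 52.5 ± 4.45 CPM (log2 fold change 0.97, limma adjusted p = 3.24e-07). CHTF8, of the alternative clamp loader, rose from 78.2 ± 2.96 CPM to 141 ± 9.57 CPM (0.84, limma adjusted p = 5.3e-08). ORC3, of the origin recognition complex, MCM9, of a helicase used in repair, and TOPBP1, which helps to load CDC45, had log2 fold changes of 0.43, 0.46 and 0.18 (limma adjusted p = 0.000195, 0.00146 and 0.0217), and under library totals TOPBP1 was no longer called, at 0.0075, while ORC3 and MCM9 were at 0.26 and 0.29. ORC3 rose while ORC1 and ORC6 fell, so subunits of the origin recognition complex also moved in different directions. Neither level nor length ordered the 36 genes strongly: across them the Spearman correlation of log2 fold change was 0.187 with the control CPM per kilobase and 0.19 with transcript length, a description over genes of the same 6 libraries. Over all tested genes these correlations were -0.164 and 0.129.

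**Figure D3:**
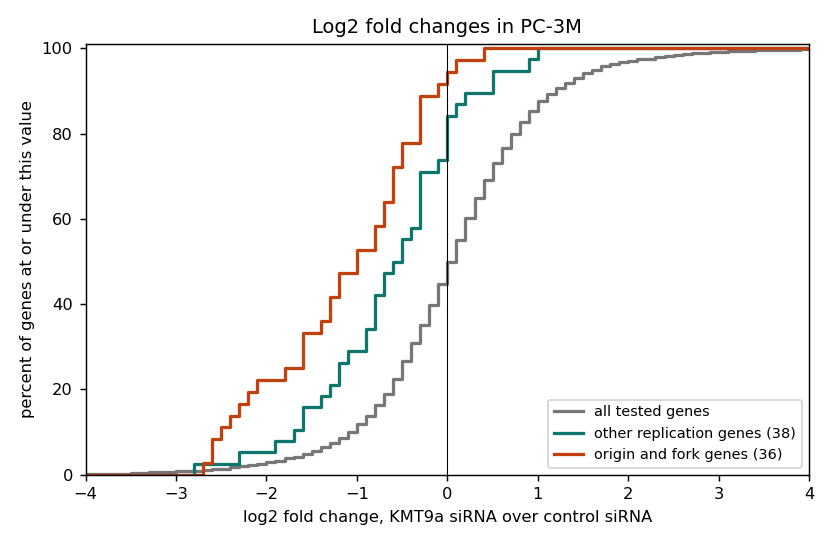
Percent of genes at or under each log2 fold change, KMT9a siRNA over control siRNA in PC-3M, for the 36 replication genes, the 38 other replication genes and all 14958 tested genes. The curve of the 36 genes lies furthest left from a log2 fold change of -2.7 upward, with a median of -1.06 against -0.60 for the other replication genes and 0.00 for all genes.

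In MCF10A only 1 replication gene could be tested. MCM4 passed the filter on low values, and the other 35 genes did not. Those 35 genes together had 30 read ends over the 6 libraries, where their shares in the PC-3M controls applied to the MCF10A totals would give 1100; 26 of them were at 0 in every library, and none had more than 6 in all. MCM7 had 6 read ends against 154 at that share, and TOP2A had 6 against 81.1. MCM4 had 332 against 70.4, so its share of the MCF10A reads was above that in the PC-3M controls while the shares of its partners in the ring were far below it. The defining basal markers KRT5 and LAMB3 were at 0 in all 6 MCF10A libraries, and KRT17 was at 597 to 845 CPM in controls. KRT14 was at 637 CPM in knockdown replicate 2, the library that stood apart, at 5.27 CPM in knockdown replicate 1 and at 0 in the rest. Of the 6 cycling markers, CCNA2, BUB1 and AURKA were at 0 in all 6 libraries and MKI67, CCNB1 and CDK1 had reads in some, up to 16.3 CPM for MKI67 in knockdown replicate 2. The labelled cell type could be checked only in part.

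**Figure D4:**
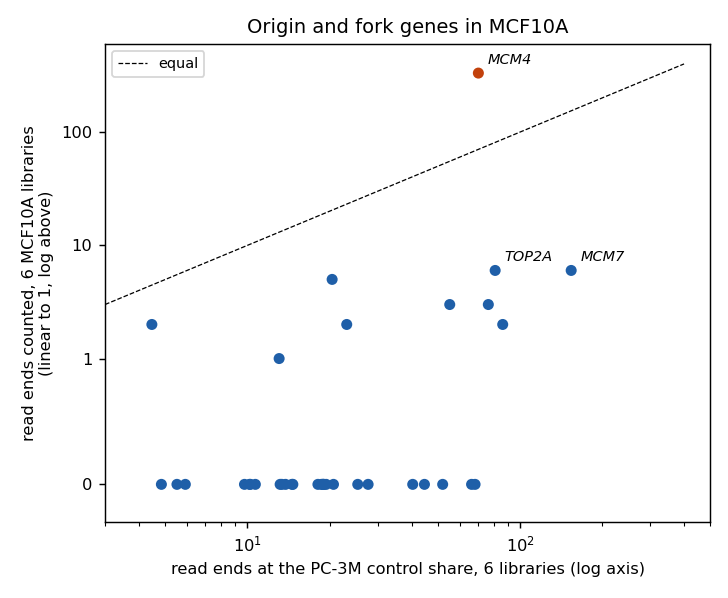
Read ends counted for each of the 36 replication genes over the 6 MCF10A libraries, against the number that the gene's share in the PC-3M controls would give at the same totals. The dashed line marks equal numbers; MCM4 lies above it at 332, and all the other genes lie at 6 or fewer.

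MCM4 had 31, 34 and 32 read ends in the MCF10A control replicates and 92, 38 and 105 in the knockdown replicates, or 147, 149 and 138 CPM and 485, 310 and 399 CPM. Every knockdown library lay above every control. With read ends divided by 2, control replicates 1 and 2 of MCF10A differed by less than the sampling noise, with a chi-square of 0.799 per degree of freedom. Read ends that are not divided would give a larger value. The share of even numbers among low read-end values was 51.8 to 57.4% in MCF10A libraries, against 65.1 to 66.5% in PC-3M, so the division has less ground in MCF10A. These 2 controls are counted as 1 sample in the second value that follows. The log2 fold change was 1.38 (SE 0.279, 95% interval 0.74 to 2.02), with a limma adjusted p of 0.103 over 1049 genes, and 1.40 with a limma adjusted p of 0.494 when those controls were averaged. The MCM4 difference was therefore not past the threshold, and 0.477% of the genes tested in this line were, 0.381% lower and 0.0953% higher. Its unadjusted p was 0.00108; edgeR gave an adjusted p of 0.0834 and DESeq2 one of 0.00143. Knockdown replicate 2 stood apart from the other 2 by the same measure, with a chi-square of 14.6 and 21.1 per degree of freedom. It set the call, since without it the log2 fold change was 1.53 and the limma adjusted p was 5.28e-06. MCM4 is the only replication gene for which the lines could be compared, and its log2 fold change in PC-3M minus that in MCF10A was -1.54 (SE 0.288, z test adjusted p = 2.67e-06 over 1021 genes, of which 26.8% passed). With the averaged controls the difference was -1.56, with a z test adjusted p of 0.000739. The z test takes its p-values from the normal distribution, which makes them too small for groups of 3 libraries or fewer.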

How the data were processed

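RNA was measured in 12 libraries, 3 per group. The submitters' processing notes name STAR, HOMER, edgeR and the hg19 build; versions, roles, strand handling and filters are not given in the sources used here. The authors deposited a table per line, each of 38763 transcript rows named by RefSeq and placed on hg19. Per the file headers it holds 6 columns of scaled signal beside the authors' log2 fold change with its raw and adjusted p-value. All deposited signal values were whole multiples of a step particular to the library (within 0.1 step, 100% of values above 0), with even multiples in excess, so 1 step was taken as 1 read end and read ends were recovered. No per-sample column was left unassigned. Rows without an annotation, 1182 in each table, kept their RefSeq identifier.

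The members, lists, groupings and tests were chosen with earlier results of these data known. Apart from genes said to be named after their values were seen, the names in the text follow a rule. It takes N6AMT1, all 36 genes and, of the other replication genes, the 6 of smallest p in each direction among those called. KIAA0101 in the table was used for PCLAF. The main test was limma 3.58.1 (R 4.3.3) with a trended prior variance on log2 values of the signal, scaled by TMM, plus a pseudocount of 1, fitted in each table alone, with Benjamini-Hochberg adjustment over all tested genes and a threshold of 0.05. Fold changes on this scale understate the change of low genes. Low genes were removed with the edgeR 4.0.16 filter on recovered reads (minimum count 10, minimum total 15). The lines were compared by a z statistic from both fits, with p-values from the normal distribution, which are too small for groups of this size. The edgeR quasi-likelihood test and DESeq2 1.42.0 on recovered reads, other scalings, pseudocounts and filters, the longest transcript row, the replicate number as a block and each library left out were alternatives; averaging MCF10A control replicates 1 and 2 was added after seeing the data. The main test was checked on simulated counts. Several transcript rows existed for 14 of the 36 genes, and their log2 fold changes differed by at most 0.0636. Values of some single marker genes are not reported here.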

Additional observations from a re-analysis of the deposited data

Results flagged for a closer look

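MCM4 was picked out because its log2 fold change differed between the lines by the test of the difference: the value in PC-3M minus that in MCF10A was -1.54, from -0.16 in PC-3M and 1.38 in MCF10A, with a z test adjusted p of 2.67e-06. The MCF10A value rests on 31 to 34 read ends per control library and 38 to 105 per knockdown library, and did not itself pass (limma adjusted p = 0.103). The z test p-value is too small for groups of 3 libraries.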

How the results depend on the processing

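Of the 36 replication genes, 31 kept their direction and their side of the threshold in PC-3M under every alternative that tested them, 16 for most and 15 for MCM10, ORC1, GINS4 and PRIM1; the rest were MCM4, GINS3, LIG1, POLD1 and POLD3. Library totals in place of TMM moved the role medians to -1.17 for licensing, -1.03 for the clamp and loader, -0.76 for the polymerases and primase and -1.21 for the other fork genes, beside a median of -0.17 over all genes, and a mean of at least 5 CPM, which left out those 4 genes and LIG1, moved licensing to -0.72 and the other fork genes to -1.23. With each library left out in turn, the role medians ranged from -2.26 to -1.94 for helicase activation, -1.04 to -0.97 for licensing, -0.91 to -0.84 for the clamp and loader, -0.63 to -0.57 for the polymerases and primase and -1.08 to -1.01 for the other fork genes; 30 to 33 replication genes were lower, and 0 to 1 was higher in MCF10A. POLD3 changed sign under library totals (-0.13), without control replicate 2 (-0.036) and without knockdown replicate 3 (-0.014), within a range of -0.036 to 0.093 over the libraries left out. In MCF10A DESeq2 called 1 replication gene higher, MCM4. Same-numbered libraries did not deviate together (correlations of -0.041, -0.021 and 0.037 in PC-3M and -0.071, 0.139 and 0.157 in MCF10A). With the replicate number as a block, 31 replication genes were lower and 1 higher in PC-3M, 26 other replication genes were lower and 5 higher, and 0 were called in MCF10A; the MCM4 line difference was -1.54. Where a value moved, the cause was not tested. MCF10A libraries were shallow, and 35 of the 36 genes could not be tested there. Those 35 genes had 30 read ends, where their PC-3M control shares at the same depth would give 1100. The reason for this gap was not tested.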
